A study of Homo sapiens with 6 samples.

Results

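The genes described here are SPRY1, SPRY2, SPRY4, SPRED1, SPRED2, DUSP4, DUSP5, DUSP6, ETV4 and ETV5. They brake ERK signalling or carry its output to transcription. They were chosen by name, and each of the 10 matched 1 of the 60564 gene rows of the count table. The RNA came from A2780 cells, an established line of human ovarian cancer, and its 6 libraries carry the genotype label GPT2si (3 libraries) or GPT2sinc (3 libraries). GPT2 is a mitochondrial alanine aminotransferase, and the title of the series gives its deficiency as the question. The labels do not spell out si and sinc and name no further allele, agent, dose or time. Whether libraries of 1 group stem from different cultures is not stated, so each p-value reflects how far these libraries scatter, possibly for technical reasons.

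Growth factor receptors activate Ras, which switches on the kinase chain of RAF, MEK and ERK. Active ERK induces genes whose products turn the same chain down: Sprouty and SPRED proteins act at the level of receptor, Ras and RAF, and dual-specificity phosphatases remove the activating phosphates of ERK itself. ETV4 and ETV5 are ETS transcription factors of the PEA3 group that ERK signalling induces and activates. Mutations that keep the chain active occur in some ovarian cancers, low-grade serous carcinoma among them.

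GPT2 was lower in each GPT2si library, at 93.8, 94.3 and 96.9 CPM (counts scaled to a common library total with TMM factors), against 236, 229.9 and 219 CPM in GPT2sinc libraries (log2 fold change −1.26, SE 0.08, adjusted p = 0.000393, edgeR quasi-likelihood test with Benjamini-Hochberg adjustment). Total counts were 41931162 to 50882329 in GPT2si and 43351984 to 45508530 in GPT2sinc libraries, so that a floor of 3 counts equals 0.0590 to 0.0715 CPM. GPT2si 2 stood apart: within its group the chi-square per degree of freedom over genes was 37.9 and 46.3 against the other libraries, and 7.71 between those. Of 10 markers of ovarian epithelium, KRT7, WT1 and ESR1 were at 0 in all libraries and PAX8 averaged 0.195 CPM in GPT2si and 0.176 CPM in GPT2sinc libraries. CDH1 averaged 0.251 and 0.190 CPM, and MUC16 0 and 0.0230 CPM, in the same order. KRT8 (38.4 ± 4.00 against 31.7 ± 0.690 CPM) and KRT18 (31.2 ± 4.17 against 24.7 ± 0.683 CPM; SD, n = 3 each) were present. FOLR1 (16.4 ± 2.61 against 15.9 ± 1.77 CPM) and EPCAM (1.61 ± 0.0890 against 1.94 ± 0.280 CPM; SD, n = 3 each) overlapped between the groups. The summed level of the 10 markers was 78.9 to 99.6 CPM in GPT2si and 73.1 to 76.5 CPM in GPT2sinc libraries. All 6 markers of fibroblasts were detected, summing to 2876 to 3062 CPM in GPT2si and 2857 to 3019 CPM in GPT2sinc libraries, most of it COL3A1 (2587 ± 105 against 2561 ± 65.9 CPM; SD, n = 3 each). Of 6 leukocyte markers CD3E and MS4A1 were at 0 and CD68 was detected in every library, and the list summed to 4.39 to 8.11 CPM in GPT2si and 4.00 to 5.06 CPM in GPT2sinc libraries, highest in GPT2si 2. In addition, the 5 endothelial markers summed to at most 0.334 CPM. The part of any of these markers in the results below was not tested.

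The sequences upstream of RefSeq start sites of Sprouty and SPRED genes are shown because members of these families that behaved differently can be compared in them. RefSeq (GRCh38.p14) promoter windows matched 6 of the 10 genes. Those of SPRED1 and DUSP6 begin in a GENCODE 29 exon and are not shown. Their 250 bases before the start site held the ETS core GGAA or TTCC 3 and 6 times. Of the genes that overlapped between the groups, only SPRY1 is therefore shown. The stretches below run 5′ to 3′ up to the outermost RefSeq start site, or to the last base before a GENCODE 29 exon. Capitals mark GGAA or its reverse complement TTCC, the core that ETS factors bind. The stretches lie at chr13:80341127-80341376 on the minus strand for SPRY2, chr5:142324418-142324497 on the minus strand for SPRY4, chr2:65432638-65432849 on the minus strand for SPRED2 and chr4:123396545-123396794 on the plus strand for SPRY1. The SPRY4 stretch lies inside the GENCODE 29 span of SPRY4 (142310427 to 142326455), and the other stretches lie outside the spans of their genes. Its letters are therefore not like for like with those of the others. SPRY1, SPRY2 and SPRED2 have further start sites whose windows are not shown.
SPRY2: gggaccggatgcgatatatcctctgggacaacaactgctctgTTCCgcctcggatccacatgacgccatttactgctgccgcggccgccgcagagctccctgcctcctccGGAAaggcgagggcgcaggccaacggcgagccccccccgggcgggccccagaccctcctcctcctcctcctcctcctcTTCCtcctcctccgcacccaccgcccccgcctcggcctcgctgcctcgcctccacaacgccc
SPRY4: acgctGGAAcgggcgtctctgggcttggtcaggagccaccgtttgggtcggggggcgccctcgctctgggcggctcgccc
SPRED2: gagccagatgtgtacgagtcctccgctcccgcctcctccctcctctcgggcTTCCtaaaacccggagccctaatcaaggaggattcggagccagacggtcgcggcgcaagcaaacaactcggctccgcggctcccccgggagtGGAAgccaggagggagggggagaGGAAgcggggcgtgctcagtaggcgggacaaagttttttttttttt
SPRY1: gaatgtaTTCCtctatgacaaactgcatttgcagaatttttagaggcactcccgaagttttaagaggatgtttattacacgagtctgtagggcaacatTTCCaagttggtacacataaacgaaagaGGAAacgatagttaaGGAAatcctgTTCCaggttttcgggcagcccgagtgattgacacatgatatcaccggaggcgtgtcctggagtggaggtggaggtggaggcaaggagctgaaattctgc
The core occurred 3 times in 250 bases for SPRY2, 1 time in 80 bases for SPRY4, 3 times in 212 bases for SPRED2 and 5 times in 250 bases for SPRY1. At least 1 core was present in 92.7% of 35116 RefSeq promoters of 250 bases, whose median was 3, a longer window than that of SPRY4 or SPRED2. The longer form CCGGAA, searched on both strands and overlapping the core, was found in the SPRY2 stretch and in 14.5% of all promoters. It also occurred 1 time in the window of the second SPRY1 start site, which begins in an exon, and in no window of the other SPRY2 start sites. TGANTCA, the site of AP-1 (6.57% of all promoters), and TGAATGNA, the site of the repressor CIC (3.25%), were found in none of the 4 stretches. GC content was 70.4% for SPRY2, 73.8% for SPRY4, 61.8% for SPRED2 and 45.6% for SPRY1. These matches describe the letters of the windows.

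SPRY4 and ETV5 rose with GPT2si, and the other 8 genes did not pass the test at an adjusted p under 0.05. Of all 17006 genes tested, 0.576% passed as higher and 0.841% as lower, against 2 and 0 of the 10 members. Without adjustment, 7 members had a p under 0.05 as higher and 0 as lower, where 10.3% and 9.27% of all tested genes did. In the same 7 members every GPT2si library lay above every GPT2sinc library, which held for 14.9% of all tested genes (13.2% lay below). DESeq2 called these 7 higher and 0 lower, against 4.15% and 3.58% of the genes to which it gave an adjusted p; DUSP4 received none. Summed over the members, the level was 1174, 1214 and 1165 CPM in GPT2si libraries, against 919.5, 944.4 and 953.3 CPM in GPT2sinc libraries. The median log2 fold change of the members was 0.38, and that of all tested genes −0.01. In RNA from whole cultures, fewer cells that express a gene and less RNA per cell cannot be told apart.

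**Figure D1:**
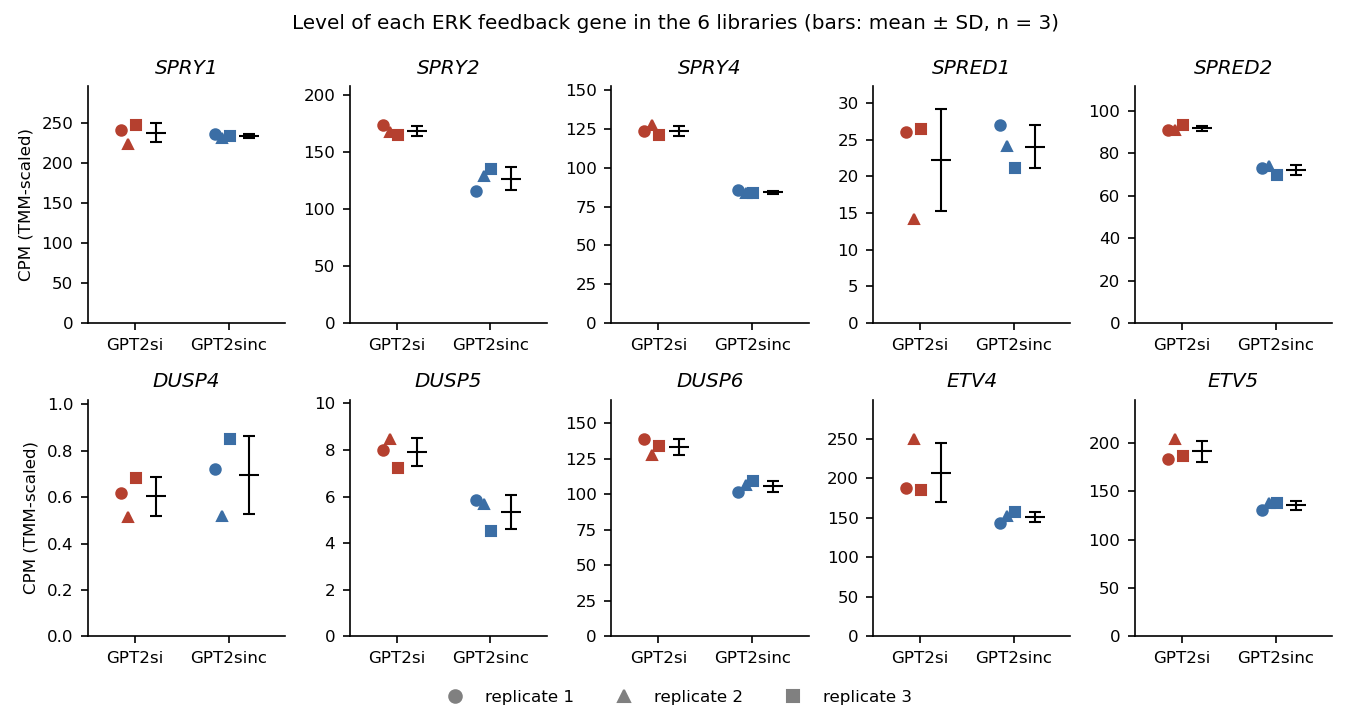
TMM-scaled CPM of each member (vertical axes from 0, each with its own scale) in the GPT2si libraries (red) and the GPT2sinc libraries (blue); symbols mark replicate numbers and bars the mean ± SD of 3 libraries. SPRY2, SPRY4, SPRED2, DUSP5, DUSP6, ETV4 and ETV5 do not overlap between the groups, and SPRY1, SPRED1 and DUSP4 do.

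SPRY4 (ENSG00000187678; chromosome 5, 142310427 to 142326455, minus strand, GRCh38, GENCODE 29), a Sprouty gene induced by growth factors, was at 124, 127 and 121 CPM in GPT2si libraries and at 85.4, 83.6 and 83.7 CPM in GPT2sinc libraries. The libraries of each group lay close together and the groups were apart. The mean was 124 ± 3.22 against 84.2 ± 1.00 CPM (SD, n = 3 each), a 1.47-fold difference (log2 fold change 0.56, SE 0.08, adjusted p = 0.016, edgeR). The 95% interval of the log2 fold change was 0.39 to 0.73. Without GPT2si 1, GPT2sinc 1, GPT2sinc 2 or GPT2sinc 3 the value stayed at 0.55 to 0.57 and did not pass (edgeR adjusted p 0.0988 to 0.141). Over all tested genes, 0 to 3 were called higher in those fits.

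SPRY2 (ENSG00000136158; chromosome 13, 80335976 to 80340951, minus strand), which restrains receptor signalling to Ras, was at 173, 167 and 165 CPM in GPT2si libraries, against 116, 129 and 135 CPM in GPT2sinc libraries. The groups did not overlap, and GPT2sinc 1 was the lowest library. The log2 fold change was 0.41 (SE 0.09, 95% interval 0.22 to 0.60, adjusted p = 0.0548, edgeR), just outside the threshold. Without GPT2si 2 it was 0.40 and passed (adjusted p = 0.0219, edgeR; 0.00274 to 0.268 over all alternatives).

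SPRY1 (ENSG00000164056; chromosome 4, 123396795 to 123403760, plus strand), the third Sprouty gene measured here, was at 242, 224 and 247 CPM in GPT2si libraries, against 236, 232 and 234 CPM in GPT2sinc libraries. The groups overlapped, with GPT2si 2 the lowest library of all. Its change did not pass (log2 fold change 0.02, SE 0.08, adjusted p = 0.893, edgeR), and the 95% interval, −0.15 to 0.19, lay below the interval of SPRY4.

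The ratio of paralogs within a library compares members without library scaling; these ratios were chosen after the values were seen. The log2 ratio of SPRY4 to SPRY1 was −0.97, −0.82 and −1.03 in GPT2si libraries, against −1.47, −1.47 and −1.48 in GPT2sinc libraries. That of SPRY2 to SPRY1 was −0.48, −0.42 and −0.58 in GPT2si libraries and −1.03, −0.84 and −0.79 in GPT2sinc libraries. Neither ratio overlapped between the groups, and both were higher with GPT2si. The two-sided exact permutation p was 0.1 for each, the smallest that 3 against 3 libraries allow, and 0.267 when adjusted over the 8 within-family ratios computed. The ratio of SPRY4 to SPRY2 overlapped between the groups (−0.44 ± 0.05 against −0.59 ± 0.13; SD, n = 3 each; exact permutation p = 0.3).

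SPRED2 (ENSG00000198369; chromosome 2, 65310851 to 65432637, minus strand), whose protein recruits neurofibromin to Ras, was at 91.2, 91.1 and 93.2 CPM in GPT2si libraries, against 73.2, 73.9 and 69.7 CPM in GPT2sinc libraries. The groups were apart by more than their spread, 91.8 ± 1.16 against 72.3 ± 2.26 CPM (SD, n = 3 each). The log2 fold change of 0.35 (SE 0.08, 95% interval 0.17 to 0.52) did not pass (adjusted p = 0.0679, edgeR), and passed without GPT2si 2 at 0.34 (adjusted p = 0.0238, edgeR; 0.00558 to 0.272 over all alternatives).

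SPRED1 (ENSG00000166068; chromosome 15, 38252326 to 38357249, plus strand), the paralog that is mutated in Legius syndrome, was at 26.1, 14.2 and 26.5 CPM in GPT2si libraries, against 27.0, 24.1 and 21.2 CPM in GPT2sinc libraries. GPT2si 2 was the lowest library of all, and the other GPT2si libraries lay within the GPT2sinc range. Its log2 fold change was −0.11 (SE 0.21, 95% interval −0.59 to 0.37, adjusted p = 0.805, edgeR) and 0.11 (SE 0.11) without GPT2si 2. The log2 ratio of SPRED2 to SPRED1 was 1.81, 2.68 and 1.81 in GPT2si libraries, against 1.44, 1.61 and 1.72 in GPT2sinc libraries (exact permutation p = 0.1, 0.267 adjusted over the 8 ratios). This ratio keeps the GC trend of the libraries described below, and the genes differ in GC (48.7% and 38.9%). With that trend and that of transcript length removed, SPRED2 and SPRED1 were at 90.9 and 26.9 CPM in GPT2si 1. In GPT2sinc 1 they were at 72.0 and 21.2 CPM, so that the ratio then overlapped between the groups.

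DUSP6 (ENSG00000139318; chromosome 12, 89347232 to 89353271, minus strand) encodes the cytoplasmic phosphatase specific for ERK. It was at 139, 128 and 134 CPM in GPT2si libraries, against 101, 106 and 109 CPM in GPT2sinc libraries. Each GPT2si library was above each GPT2sinc library. The log2 fold change was 0.34 (SE 0.08, 95% interval 0.16 to 0.52) and did not pass (adjusted p = 0.0727, edgeR; 0.0178 without GPT2si 2, and 0.00918 to 0.328 over all alternatives). An antisense gene, AC024909.2, shares 40.5% of the exon bases of DUSP6. The libraries kept strand, but whether the counting used it is not given, so reads of the pair may not be told apart. AC024909.2 itself had 102, 94 and 89 counts in GPT2si libraries and 91, 61 and 89 in GPT2sinc libraries, against 4651 to 6984 for DUSP6.

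DUSP5 (ENSG00000138166; chromosome 10, 110497838 to 110511544, plus strand), the inducible nuclear phosphatase of ERK, had 403, 330 and 330 counts in GPT2si libraries, against 268, 264 and 196 in GPT2sinc libraries. Scaled, these were 8.01, 8.47 and 7.24 CPM against 5.84, 5.68 and 4.50 CPM. The groups did not overlap, and the fitted change was as large as that of SPRY4 with a wider error (log2 fold change 0.56, SE 0.16, 95% interval 0.22 to 0.91). It did not pass (adjusted p = 0.105, edgeR), and neither did it without GPT2si 2 (0.50, adjusted p = 0.113, edgeR; 0.0245 to 0.274 over all alternatives).

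DUSP4 (ENSG00000120875), a nuclear phosphatase of ERK and other MAP kinases, was close to the low end of what these libraries measure. It had 31, 20 and 31 counts in GPT2si libraries, against 33, 24 and 37 in GPT2sinc libraries. The groups overlapped, at 0.603 ± 0.0844 against 0.695 ± 0.168 CPM (SD, n = 3 each). The 95% interval of the log2 fold change, −0.91 to 0.51, includes 0 as well as the changes of SPRY2 and SPRED2, so that a difference of that size remains possible.

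ETV5 (ENSG00000244405; chromosome 3, 186046308 to 186110318, minus strand) was at 183, 204 and 186 CPM in GPT2si libraries, against 130.3, 137 and 138 CPM in GPT2sinc libraries. The groups were well apart and GPT2si 2 was the highest library. The mean was 191 ± 11.3 against 135 ± 4.19 CPM (SD, n = 3 each), a 1.41-fold difference (log2 fold change 0.50, SE 0.08, 95% interval 0.32 to 0.68, adjusted p = 0.0257, edgeR). Without GPT2si 2 it was 0.44 and passed (adjusted p = 0.00716, edgeR). Leaving out any other library ended the call (edgeR adjusted p 0.0515 to 0.185, at 0.47 to 0.52). Over all tested genes, 51 were called higher without GPT2si 3 and 0 to 3 in the rest of these fits.

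ETV4 (ENSG00000175832; chromosome 17, 43527844 to 43579620, minus strand) was at 187, 249.5 and 185 CPM in GPT2si libraries, against 144, 152 and 157 CPM in GPT2sinc libraries. All GPT2si libraries were above all GPT2sinc libraries, and GPT2si 2 was far above the other GPT2si libraries. The log2 fold change was 0.46 (SE 0.12, 95% interval 0.19 to 0.72, adjusted p = 0.0922, edgeR). Without GPT2si 2 it was 0.29 (SE 0.06) and passed (adjusted p = 0.0288, edgeR; 0.00822 to 0.362 over all alternatives), with a smaller change and a smaller error. The log2 ratio of ETV5 to ETV4 was −0.11 ± 0.16 in GPT2si and −0.16 ± 0.02 in GPT2sinc libraries (SD, n = 3 each; exact permutation p = 0.5). Exon bases shared with other genes were few, 1.89% of ETV4 with DHX8 and 2.83% of ETV5 with DGKG.

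**Figure D2:**
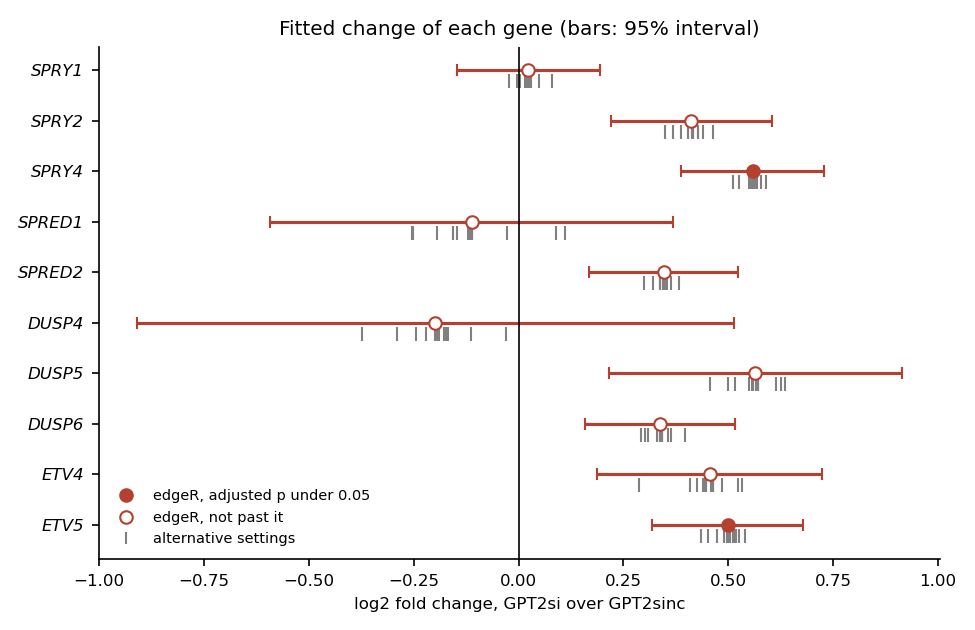
Fitted log2 fold change of each member, GPT2si over GPT2sinc, with its 95% interval (horizontal axis); filled points passed an adjusted p under 0.05 in edgeR and grey ticks are the values under the alternative settings. SPRY4 and ETV5 are filled, at 0.56 and 0.50, and the intervals of SPRY1, SPRED1 and DUSP4 include 0.

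Levels between genes were compared as CPM per kilobase of exon. In GPT2si libraries the order was SPRY1 (60.0 ± 3.00), ETV4 (57.4 ± 10.2), SPRY2 (55.5 ± 1.44), ETV5 (32.9 ± 1.94), DUSP6 (28.8 ± 1.22), SPRY4 (18.9 ± 0.490), SPRED2 (17.8 ± 0.225), DUSP5 (3.02 ± 0.237), SPRED1 (2.70 ± 0.844) and DUSP4 (0.0831 ± 0.0116 CPM per kilobase; SD, n = 3). ETV4 did not differ from SPRY1 or SPRY2 beyond its spread there, nor did DUSP5 from SPRED1. The ranges of mean ± SD of SPRY1 and SPRY2 did not meet. In GPT2sinc libraries SPRY1 led alone at 59.0 ± 0.533 CPM per kilobase, followed by ETV4 (41.9 ± 1.83) and SPRY2 (41.7 ± 3.32), which were within their spread of each other. ETV5 (23.3 ± 0.722) and DUSP6 (22.8 ± 0.855) were within their spread as well. SPRED2 (14.0 ± 0.438) was above SPRY4 (12.8 ± 0.153), the other way round than in GPT2si libraries. SPRED1 (2.92 ± 0.350) was above DUSP5 (2.04 ± 0.279), as it also was in GPT2si 1 and GPT2si 3, and DUSP4 (0.0958 ± 0.0232 CPM per kilobase; SD, n = 3) was again the lowest.

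**Figure D3:**
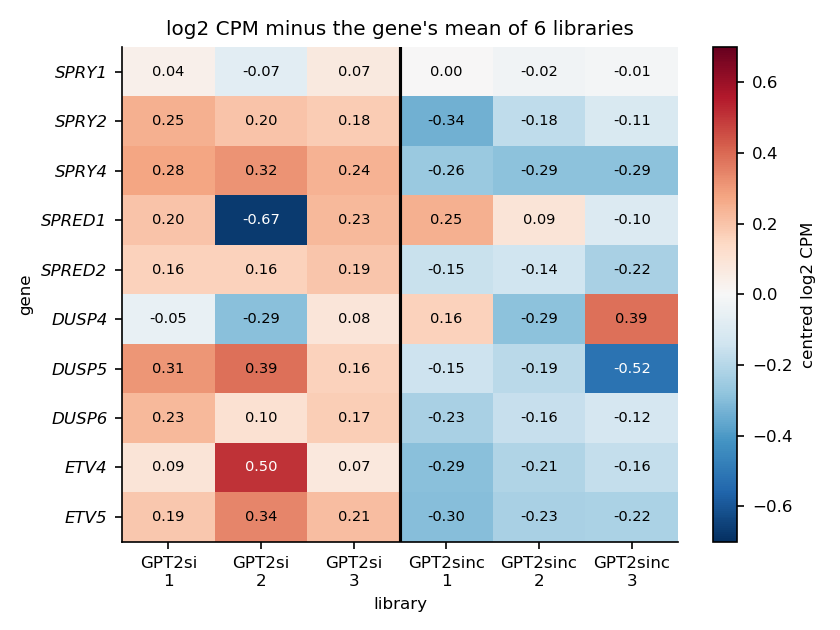
log2 CPM of each member minus its mean over the 6 libraries (colour and printed value; rows are genes, columns libraries, GPT2si left of the line). SPRY4 runs from 0.24 to 0.32 in GPT2si and from −0.29 to −0.26 in GPT2sinc libraries, while SPRED1 is at −0.67 and ETV4 at 0.50 in GPT2si 2.

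SPRED1 and ETV4, the members in which GPT2si 2 differed most from the rest of its group, lie at opposite ends of the members' GC content. The longest transcript has 38.9% GC for SPRED1 and 60.8% for ETV4, against 44.8% to 55.9% for the other 8. Over all tested genes, the median centred log2 CPM of GPT2si 2 was −0.38 in the lowest and 0.22 in the highest of 5 equal bins by GC. In the other libraries the lowest bin lay between −0.003 and 0.22 and the highest between −0.07 and 0.01. When each library's trend with GC and transcript length was taken out, ETV4 was at 196, 225 and 196 CPM in GPT2si libraries against 147, 151 and 155 CPM in GPT2sinc libraries. SPRED1 was then at 26.9, 19.9 and 23.6 CPM in GPT2si libraries against 21.2, 23.8 and 21.4 CPM in GPT2sinc libraries. With these offsets in edgeR the same 7 members that lay apart between the groups were called higher, where 7.76% of tested genes were, and the log2 fold changes of ETV4 and SPRED1 were 0.45 (SE 0.07) and 0.09 (SE 0.11). Without GPT2si 2, 6 members were called higher, against 2.15% of tested genes; DUSP5 was the one of the 7 that was not.

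**Figure D4:**
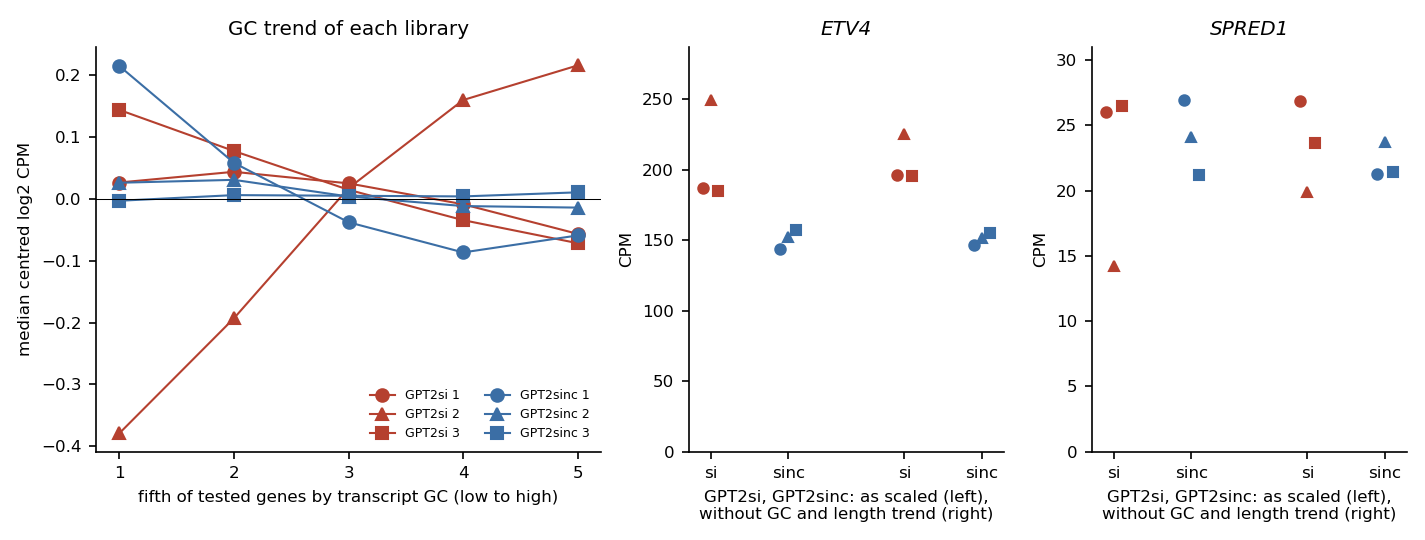
Left, median centred log2 CPM of each library (vertical axis) in 5 equal bins of the tested genes by transcript GC (horizontal axis), with GPT2si in red and GPT2sinc in blue; right, CPM of ETV4 and SPRED1 in each library as scaled and after the GC and length trend was removed. GPT2si 2 (red triangles) runs from −0.38 to 0.22 across the bins, and for ETV4 it stands at 249.5 CPM as scaled and at 225 CPM after removal.

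Of 19 other ERK output genes 18 were tested, EPHA4 being too low, and edgeR called 4 higher and 0 lower, with a median log2 fold change of 0.43. The change was positive in 15 of the 18 and negative in 3, the lowest at −0.18. At p under 0.05 before adjustment, 12 were higher and 0 lower, DESeq2 called 8 and 0, and 14 did not overlap between the groups as higher. Over all tested genes the shares for higher were 0.576% by edgeR, 10.3% before adjustment, 4.15% by DESeq2 and 14.9% without overlap. The 4 were EGR1, a zinc finger factor of the immediate early response (79.2 ± 6.66 against 42.4 ± 3.27 CPM, log2 fold change 0.90, SE 0.10), EGR3 of the same family (3.28 ± 0.427 against 1.41 ± 0.0425 CPM, 1.21, SE 0.18), the AP-1 subunit gene FOSL1 (38.1 ± 3.19 against 22.2 ± 1.35 CPM, 0.78, SE 0.11) and the ephrin receptor gene EPHA2 (165 ± 19.3 against 116 ± 5.75 CPM, 0.51, SE 0.10; SD, n = 3 each). Their adjusted p by edgeR ran from 0.0115 for EGR1 to 0.0476 for EPHA2. The count was 9 without GPT2si 2, 3 without GPT2si 3 and 0 without any 1 of the remaining libraries. Over all tested genes, 377 were called higher without GPT2si 2, 51 without GPT2si 3 and 0 to 3 without any 1 of the remaining libraries. The list was made with earlier results of these data known, and its direction is not independent evidence.

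**Figure D5:**
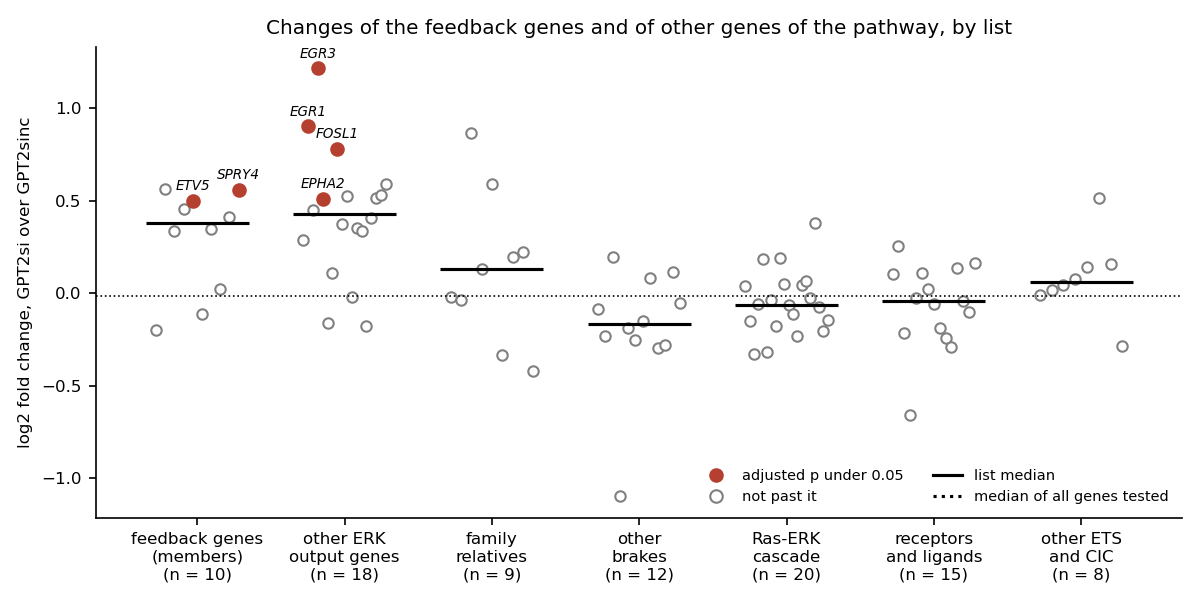
Log2 fold change, GPT2si over GPT2sinc (vertical axis), of the tested genes of each list; filled points passed an adjusted p under 0.05 in edgeR, black bars are list medians and the dotted line is the median of all tested genes. The medians of the members (0.38) and of the other ERK output genes (0.43) are the highest of the 7 lists plotted, which leave out the cell type markers, and the remaining medians lie between −0.17 and 0.13.

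Relatives of the members from the same families did not pass edgeR: 0 of 9 tested genes were called, with 1 higher and 2 lower at p under 0.05 before adjustment, 1 higher and 0 lower with DESeq2, and a median of 0.13. DUSP2, an inducible nuclear phosphatase, was at 4.28, 4.16 and 4.54 CPM in GPT2si libraries, against 2.05, 2.11 and 2.96 CPM in GPT2sinc libraries (0.87, SE 0.19, adjusted p = 0.0599, edgeR). DUSP9, another cytoplasmic ERK phosphatase, was at 26.7, 29.9 and 26.0 CPM in GPT2si libraries, against 37.9, 32.7 and 33.7 CPM in GPT2sinc libraries (−0.34, SE 0.11, adjusted p = 0.137, edgeR). DUSP9 was thus lower in each GPT2si library and DUSP2 and DUSP6 higher, though none of these genes passed edgeR. SPRY3 was at −0.42 (SE 0.17) and SPRED3 at 0.22 (SE 0.12) on the log2 scale. SPRY3 was lower in each GPT2si library, at 4.83, 4.57 and 6.41 CPM against 7.61, 6.65 and 6.89 CPM in GPT2sinc libraries (adjusted p = 0.216, edgeR). Of the 9 relatives, 3 did not overlap between the groups as higher and 2 as lower, where 14.9% and 13.2% of all tested genes did.

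Transcripts of the chain itself did not pass either. Of 20 genes from adaptors to ERK and RSK kinases, 0 were called by edgeR, 1 was higher and 0 lower at p under 0.05 before adjustment, and DESeq2 called 1 higher and 0 lower, with a median of −0.06. SHC1, an adaptor of receptor tyrosine kinases, was at 1030, 1237 and 988 CPM in GPT2si libraries, against 788, 847 and 864 CPM in GPT2sinc libraries (0.38, SE 0.10, adjusted p = 0.0934, edgeR). The MEK genes MAP2K1 and MAP2K2 were at −0.18 (SE 0.08) and 0.19 (SE 0.12) on the log2 scale.

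Brakes of other kinds gave 0 calls among 12 tested genes by edgeR, 0 by DESeq2, and 0 higher and 2 lower at p under 0.05 before adjustment, with a median of −0.17. The ubiquitin ligase gene CBLB averaged 89.2 ± 5.33 CPM in GPT2si and 105 ± 2.04 CPM in GPT2sinc libraries (SD, n = 3 each; −0.23, SE 0.08, adjusted p = 0.171, edgeR). FLRT3 was below 1 CPM in every library (−1.10, SE 0.48), the Ras GTPase-activating gene RASA1 at −0.30 (SE 0.19) and ERRFI1, an inhibitor of EGF receptors, at 0.20 (SE 0.15). Of 15 tested receptors and ligands 0 passed edgeR and 0 DESeq2, with 1 higher and 1 lower at p under 0.05 before adjustment. These were ERBB2 (233 ± 34.0 against 195 ± 10.6 CPM, 0.26, SE 0.11) and ERBB3 (83.8 ± 4.50 against 97.4 ± 3.79 CPM, −0.22, SE 0.08; SD, n = 3 each). HGF was at −0.19 (SE 0.11) and FGF1 at −0.66 (SE 0.40). Of 8 tested ETS factors outside the PEA3 group and the repressor CIC, 0 passed edgeR or DESeq2 and 0 had p under 0.05 before adjustment. The smallest p in that list were those of ETS2 (0.51, SE 0.29), ERF (0.14, SE 0.11), ETV6 (0.16, SE 0.14) and GABPA (−0.29, SE 0.25).

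Among 10207 other protein-coding genes with a mean of at least 5 CPM, those whose log2 CPM followed the members' mean pattern over the 6 libraries most closely were DYRK3 (Pearson r = 0.998), BCCIP (0.997), MRPL47 (0.996), MEMO1 (0.993) and PNMA1 (0.992). The libraries fall into their groups along this pattern, which averaged 0.17, 0.10 and 0.16 in GPT2si 1 to 3 and −0.13, −0.16 and −0.14 in GPT2sinc 1 to 3 (centred log2 CPM), and r over so few libraries carries that split. DYRK3 was at 30.8 ± 0.617 against 26.4 ± 0.0760 CPM (SD, n = 3 each). Their log2 fold changes were 0.22 to 0.27, and 0 of the 5 passed edgeR (adjusted p 0.134 to 0.240).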

How the data were processed

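Counts per gene in 6 libraries (3 GPT2si, 3 GPT2sinc) were deposited by the authors as whole numbers, not normalized, 1 column per library. Per the labels' protocols the libraries were poly(A)-selected and kept strand. CASAVA and StringTie are named in the submitters' processing notes. For the aligner, counter, strand setting, build and annotation: not given in the sources used here. All columns were mapped by name, and 0 were left over. Symbols were found for 60295 of 60564 identifiers; positions, exon lengths and GC come from GENCODE 29.

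Groups were compared with edgeR 4.0.16 in R 4.3.3 (glmQLFit and glmQLFTest, TMM factors, filterByExpr filter, group only), with Benjamini-Hochberg adjustment over 17006 genes and a threshold of 0.05. All 10 members passed the filter. Standard errors and 95% intervals of log2 fold changes derive from the F statistic; CPM are TMM-scaled; centred values use log2 CPM with a prior count of 2. Ratios used an exact permutation test. The script was tested on simulated counts. No libraries were duplicates: the smallest chi-square per degree of freedom between libraries of a group was 7.71, where sampling noise alone gives about 1. Since PCR copies of 1 molecule cannot be recognised, floors cover counting error only.

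The members and lists were chosen with earlier results of these data known. The text names GPT2, all members, from each other list the genes past the test and up to 4 with the smallest p, and the 5 genes most alike in pattern; some markers were named outside this rule, and 1 gene it names is not reported here. Alternatives were DESeq2 size factors, upper-quartile factors, no filter, at least 1 CPM in 3 libraries, DESeq2 1.42.0, limma-voom (limma 3.58.1), a replicate block, offsets for GC and length (loess span 0.5, 98.9% of tested genes), and each library left out in turn.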

Additional observations from a re-analysis of the deposited data

How the results depend on the processing

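The members called higher numbered 2 in edgeR, 2 with DESeq2 size factors, upper-quartile factors or limma-voom, 3 with at least 1 CPM in 3 libraries, 1 without the low-count filter, and 7 with DESeq2 or with GC and length offsets; 0 were called lower in any of these. With each library left out in turn the count was 0 to 6: 6 without GPT2si 2, 1 without GPT2si 3 and 0 without GPT2si 1, GPT2sinc 1, GPT2sinc 2 or GPT2sinc 3. Over all tested genes, 377 were called higher without GPT2si 2 and 51 without GPT2si 3. Without GPT2si 1, GPT2sinc 1, GPT2sinc 2 or GPT2sinc 3 the call was made for 1, 3, 0 and 1 genes, so hardly any gene passed there. The members' median log2 fold change of 0.38 was 0.33 with upper-quartile factors, 0.42 with GC and length offsets and 0.35 to 0.41 with a library left out. The median of all tested genes moved in the same directions, from −0.01 to −0.06 with upper-quartile factors and to 0.05 with GC and length offsets. Over all genes, 98 higher and 143 lower became 61 higher with DESeq2 size factors, 17 and 27 without the filter, 569 and 491 with DESeq2, and 1306 and 667 with GC and length offsets (66.2% higher, against 40.7%). With a library left out, 0 to 377 were higher and 1 to 459 lower. The counts of ERK output genes under each alternative, the ratios of paralogs and the adjusted CPM of ETV4, SPRED1 and SPRED2 were added after seeing the data. The cause of these moves was not tested. SPRY4 passed in 10 of 14 alternatives and ETV5 in 8 of 14, and the 7 members that did not overlap between the groups kept a positive log2 fold change in each alternative. SPRED1 changed sign between alternatives (−0.25 to 0.11), as did SPRY1 (−0.02 to 0.08). At the level of DUSP4, at most 37 counts, depth limits what can be seen.

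For libraries with the same replicate number, r between their deviations from the group means was 0.09, 0.11 and −0.19 for numbers 1 to 3. Libraries with different numbers gave −0.27 to 0.25. With 3 libraries per group, such values cannot decide whether the numbers pair the samples. With a replicate block in edgeR, 4 members were called higher and 0 lower, and 252 genes higher and 306 lower.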

Other observations

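The pentamer AUUUA, part of AU-rich elements that mark short-lived mRNAs, was counted on the transcript strand in the 3′ UTR of the members (1 GENCODE 29 transcript per gene). SPRED1 held 24 in 5585 bases, or 4.30 per kilobase, and SPRY1 held 4 in 1209 bases, or 3.31 per kilobase, which is the 88.2 and 77.9 percentile of 11257 tested genes with a 3′ UTR of at least 300 bases. The median of these genes was 1.78 per kilobase. SPRY4 and DUSP6 held 1 each, at 0.81 and 0.495 per kilobase, and DUSP5 and ETV4 held 0. SPRY2 was at 2.56, SPRED2 at 1.89, ETV5 at 1.72 and DUSP4 at 1.51 per kilobase. SPRED1 and SPRY1 had the highest densities among the members; DUSP4, which like them overlapped between the groups, lay below the median of all genes, and SPRY2, which did not overlap, above it. This is a description over 10 genes, and its part in the expression values was not tested.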
